A study of Mus musculus with 172 samples.

Results

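The respiratory chain is described here through 94 genes of its subunits, out of 49671 genes counted in single cells of mouse inner cell masses (ICMs). They are picked out by symbol and annotation: every protein coding gene named as a subunit of complex I (Ndufa, Ndufb, Ndufc, Ndufs, Ndufv), complex III (Uqcr), complex IV (Cox4i, Cox5, Cox6, Cox7, Cox8) or complex V (Atp5), and the protein coding genes of the mitochondrial genome. Nuclear genes made up 81 of them, with 38 in complex I, 8 in complex III, 18 in complex IV and 17 in complex V. The mitochondrial genome contributed the other 13, with 7 in complex I, 1 in complex III, 3 in complex IV and 2 in complex V.

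The chain carries electrons from NADH and succinate to oxygen and uses the energy released to pump protons across the inner mitochondrial membrane. Complex I takes electrons from NADH, complex III passes them from ubiquinol to cytochrome c, complex IV hands them to oxygen, and complex V makes ATP from the proton gradient. Complexes I, III, IV and V are each built from subunits of both genomes, whereas complex II is nuclear only, and the blastocyst is known as a stage at which oxygen consumption and mitochondrial maturation increase.

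Embryos came from mice of mixed genetic background in matings of Oct4+/- parents, so that litters held embryos with both alleles (WT), with 1 allele (HET) or with none (MUT). OCT4, the product of Pou5f1, is the transcription factor without which an ICM does not form epiblast. ICMs were freed of trophectoderm by immunosurgery, the lysed trophectoderm was genotyped, and single ICM cells were sequenced by the full-length Smart-seq2 method. Cells were taken at embryonic day E3.5 (mid blastocyst) or E4.5 (implanting blastocyst). At E3.5 there were 58 WT or HET cells from 7 embryos, called WT/HET below, and 29 MUT cells from 4 embryos. At E4.5 the control cells were divided by the authors, from these same transcriptomes, into 37 epiblast (EPI) and 29 primitive endoderm (PrE) cells of the same 6 WT or HET embryos, and 19 MUT cells came from 2 embryos.

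The counts of all cells of an embryo, or of an embryo's EPI or PrE cells, were added up, which gave 25 sums from 19 embryos, and the embryo is the replicate throughout. A level is given in CPM, counts scaled to a fixed library total after TMM normalisation,, or as FPKM, which also divides by transcript length, where genes are compared with each other. Single cells had 363819 to 4644070 counts assigned to genes, and the median share of mapped pairs that matched several places was 38.8% and 41.1% at E3.5 (WT/HET, MUT) against 24.9%, 19.7% and 22.0% at E4.5 (EPI, PrE, MUT). Pou5f1 stood at 199 to 435 CPM in the E3.5 WT/HET embryos and at 2.74 to 5.93 CPM in the 4 E3.5 MUT embryos, and it had no count in the E4.5 MUT cells. All E3.5 cells were on one plate and all E4.5 cells on another, so stage and plate cannot be told apart. PrE markers matched the PrE label (10 of 10 lower in EPI) and epiblast markers the EPI label (9 of 10 higher in EPI). Summed trophectoderm markers were 273 to 979 CPM in E3.5 WT/HET embryos, 1277 to 2122 CPM in E3.5 MUT, 121 to 392 CPM in EPI, 736 to 1674 CPM in PrE and 8522 to 9959 CPM in E4.5 MUT. Fabp3 alone gave 653 to 1323 CPM in PrE and 3732 and 4667 CPM in E4.5 MUT. Cdx2 was at 0 and 22.9 CPM in E4.5 MUT, and Gata2 at 0 in E3.5 MUT. In MUT, 2 of 9 tested markers had a negative log2 fold change at E3.5, against 0 of 11 (EPI) and 0 of 12 (PrE) at E4.5. The part of trophectoderm genes in the MUT results below was not tested.

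Several mitochondrial genes had few counts in these files, and most of those share their sequence with another gene. The nuclear genome carries old copies of mitochondrial DNA, and a read that matches both places is not assigned to either gene. mt-Co2, subunit 2 of complex IV, is the clearest case: its transcript and that of Gm28661, a copy on chromosome 1, were identical over the 681 bases aligned. The first 125 bases, one read length, are shown because no read from them can be placed.
mt-Co2, bases 1 to 125, also Gm28661: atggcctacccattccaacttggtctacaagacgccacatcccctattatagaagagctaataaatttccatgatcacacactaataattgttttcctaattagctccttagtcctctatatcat

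Of all 125-base stretches of mt-Co2, 99.5% also occurred in the transcript of another gene, and the gene had 859 counts over all 172 cells. mt-Co3, a further core subunit of complex IV, shared 99.8% of its stretches and had 642 counts, and mt-Atp6, the proton channel subunit of complex V, shared 99.5% and had 1320 counts. mt-Nd4l (98.3% shared, 40 counts) and mt-Nd3 (97.3% shared, 4907 counts), both of the membrane arm of complex I, were in the same position. By contrast, mt-Co1, the catalytic subunit of complex IV, had 3134095 counts with 26.7% shared. mt-Cytb of complex III had 2308762 counts and mt-Nd1 of complex I 1952019 counts, both with no shared stretch. mt-Nd5 (504830 counts, none shared), mt-Nd4 (271012 counts, 60.0% shared), mt-Nd2 (210033 counts, 0.5% shared) and mt-Nd6, the gene on the other strand (19717 counts, none shared), made up the rest of the well counted genes. mt-Atp8 shared no stretch but had 76 counts. Only annotated transcripts were searched, so a copy outside them would not be seen, for mt-Atp8 or for any other subunit. The files therefore hold next to no reading of the mitochondrial part of complex V, and complex IV rests on mt-Co1 there. Among the 81 nuclear subunits 57 shared no stretch with another gene and 5 shared over 20%, up to 31.4%: Atp5o, Ndufa13, Ndufb4, Ndufb6 and Uqcrc2.

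**Figure D1:**
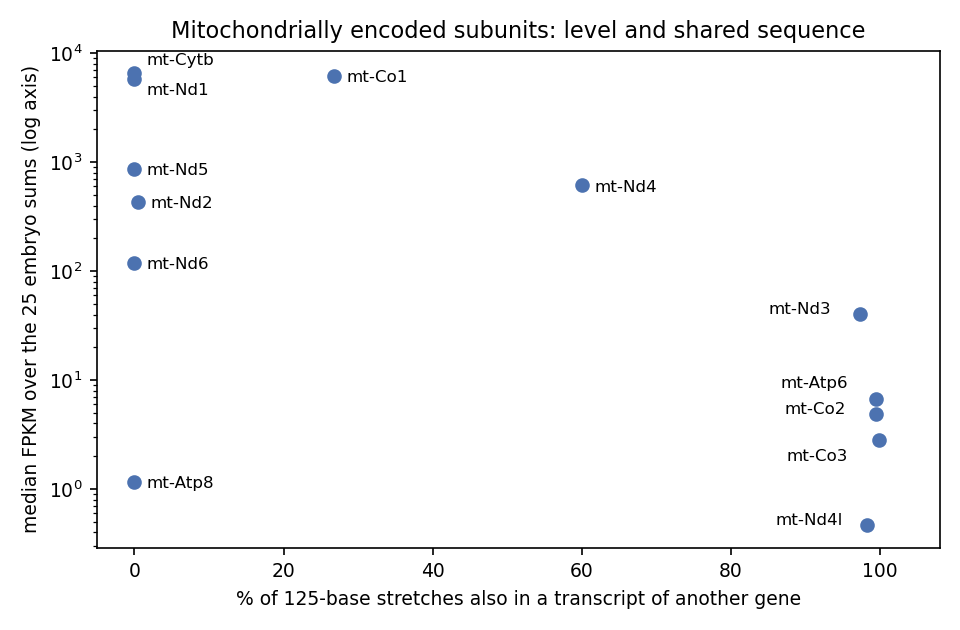
Each point is 1 of the 13 mitochondrially encoded subunits. The x axis gives the percentage of its 125-base stretches also found in a transcript of another gene and the y axis its median FPKM over the 25 sums (log axis); the 5 genes above 97% lie at 0.466 to 40.3 FPKM, whereas mt-Cytb, mt-Co1 and mt-Nd1 lie at 6530, 6170 and 5838 FPKM and mt-Atp8 at 1.17 FPKM with none shared.

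Nuclear subunits were found in all 5 groups, at median levels of 66.5 to 187 FPKM by complex and group. In E3.5 WT/HET embryos the median over subunits was 77.1 FPKM for complex I, 155 FPKM for complex III, 107 FPKM for complex IV and 128 FPKM for complex V, and 37 of 38, 8 of 8, 13 of 18 and 17 of 17 reached 1 FPKM. The same medians were 66.5, 145, 93.7 and 112 FPKM in E3.5 MUT, 107, 187, 144 and 127 FPKM in EPI, 94.6, 174, 119 and 107 FPKM in PrE, and 120, 159, 124 and 137 FPKM in E4.5 MUT. Atp5b, the catalytic beta subunit of complex V, was at 1659 to 1811 CPM (median 1764) in E3.5 WT/HET, 1561, 1845, 1610 and 1571 CPM in E3.5 MUT, and 2168 to 3822 CPM (median 2700) in EPI. mt-Nd1 stood at 9218 FPKM in E3.5 WT/HET and 4460 FPKM in EPI, far above every nuclear subunit of complex I, the highest of which was Ndufb6 at 486 and 405 FPKM in those groups.

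The balance between the genomes differed between the stages in every embryo. The mitochondrial subunits took 3.27% to 5.6% (median 4.07%) of the counts assigned to genes in the 7 E3.5 WT/HET embryos, and 5.06%, 3.27%, 3.36% and 4.99% in the 4 E3.5 MUT embryos. They took 2.11% to 2.4% (median 2.25%) in EPI, 1.36% to 2.88% (median 1.83%) in PrE, and 2.4% and 3.09% in the 2 E4.5 MUT embryos. Both stages were therefore fully separated for this share. The nuclear subunits lay the other way: 1.6% to 1.82% (median 1.72%) in E3.5 WT/HET, 1.32%, 1.7%, 1.58% and 1.7% in E3.5 MUT, 2.34% to 2.58% (median 2.47%) in EPI, 1.84% to 2.29% (median 2.02%) in PrE, and 2.09% in each E4.5 MUT embryo.

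Counts of the mitochondrial subunits exceeded those of the nuclear subunits 1.88 to 3.25 times (median 2.38) in E3.5 WT/HET embryos and 3.83, 1.92, 2.13 and 2.94 times in E3.5 MUT. In EPI and PrE the ratio was 0.836 to 1.01 (median 0.911) and 0.739 to 1.39 (median 0.909). The E4.5 MUT embryos, at 1.15 and 1.48, lay above all 6 EPI sums, and the one at 1.15 fell within the PrE range. The PrE value of 1.39 came from embryo 6, whose PrE sum holds 2 cells, and the next highest PrE share of mitochondrial counts was 1.9%. The remaining genes of the mitochondrial genome, its ribosomal and transfer RNAs, took 5.11% to 8.48% in E3.5 WT/HET and 1.37% to 2.24% in EPI. The share of pairs matching several places moved with the stage as well (values above), and its part in these shares was not tested. With the unassigned pairs in the denominator, the median share of the mitochondrial subunits was 1.99% and 1.9% at E3.5 (WT/HET, MUT) and 1.31%, 1.15% and 1.72% at E4.5 (EPI, PrE, MUT), and that of the nuclear subunits 0.851% and 0.78% against 1.45%, 1.27% and 1.3%.

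**Figure D2:**
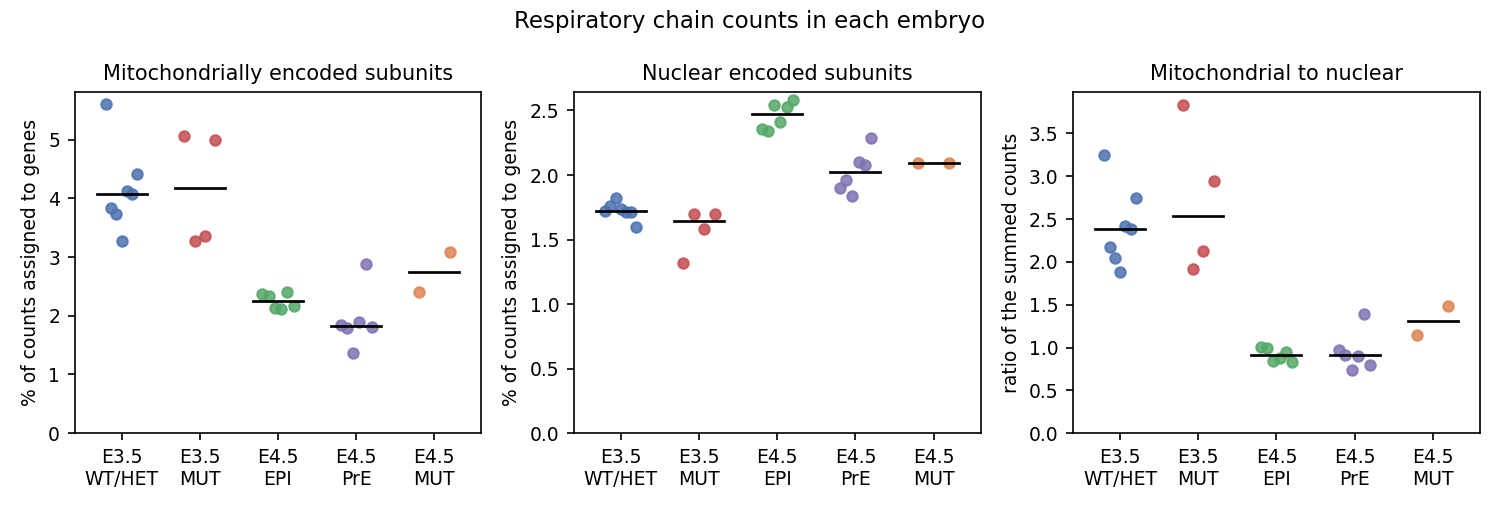
Points are embryo sums, with the median of each group as a line; the left and middle plots give mitochondrially and nuclear encoded subunits as a percentage of counts assigned to genes, the right plot their ratio. All E3.5 sums have a ratio of 1.88 or more and all E4.5 sums 1.48 or less.

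At E3.5, loss of OCT4 was accompanied by a lower level of 1 nuclear subunit, Ndufv2, and by no other member that passed the test. Of the 12075 genes tested with edgeR's quasi-likelihood test (Benjamini-Hochberg adjusted p under 0.05), 3.2% were higher and 2.98% lower in MUT. Among 75 nuclear subunits tested 0 were higher and 1 lower, and among 11 mitochondrial subunits 0 passed in either direction. At an unadjusted p under 0.05, 4 nuclear subunits were higher and 3 lower and no mitochondrial subunit passed, and DESeq2 called 0 nuclear subunits higher, 3 lower and 0 mitochondrial subunits. The median log2 fold change was -0.07 for nuclear and 0.26 for mitochondrial subunits, against -0.02 for all genes. The mitochondrial median rested on MUT embryo 10, without which it was -0.06, and it was 0.05 with cells weighted equally. mt-Cytb showed a log2 fold change of 0.46 ± 0.25 (SE), mt-Nd1 of 0.26 ± 0.24 and mt-Co1 of -0.14 ± 0.20, all with adjusted p of 0.312 or more. Their levels overlapped: mt-Nd1 was at 7081 to 14776 CPM (median 8822) in WT/HET and at 16150, 8600, 9112 and 14822 CPM in MUT.

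Ndufv2 encodes an iron-sulfur subunit of the NADH binding module of complex I, where electrons enter the chain. It was at 339, 370, 244, 341 and 321 CPM in the 5 WT embryos, at 232 and 241 CPM in the 2 HET embryos, and at 91.6, 165, 122 and 171 CPM in the 4 MUT embryos. Every MUT embryo thus lay below every control embryo, and the 2 HET embryos were the lowest of the controls, next to a WT embryo at 244 CPM. At E4.5 HET and WT controls overlapped. In EPI HET embryos were at 275, 285, 224 and 318 CPM and WT at 301 and 317 CPM. In PrE HET embryos were at 224, 219, 294 and 287 CPM and WT at 218 and 286 CPM. The mean fell from 298 ± 57.4 (SD, n = 7) to 137 ± 37.8 CPM (SD, n = 4), with a log2 fold change of -1.10 ± 0.21 (adjusted p = 0.0087). All 29 MUT cells and all 58 controls had counts. Adding counts over cells cannot tell less Ndufv2 RNA in each cell from a change in the kinds of cells present. The other proteins of the same module did not pass, with log2 fold changes of -0.20 ± 0.19 for Ndufv1 and 0.06 ± 0.23 for Ndufv3.

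**Figure D3:**
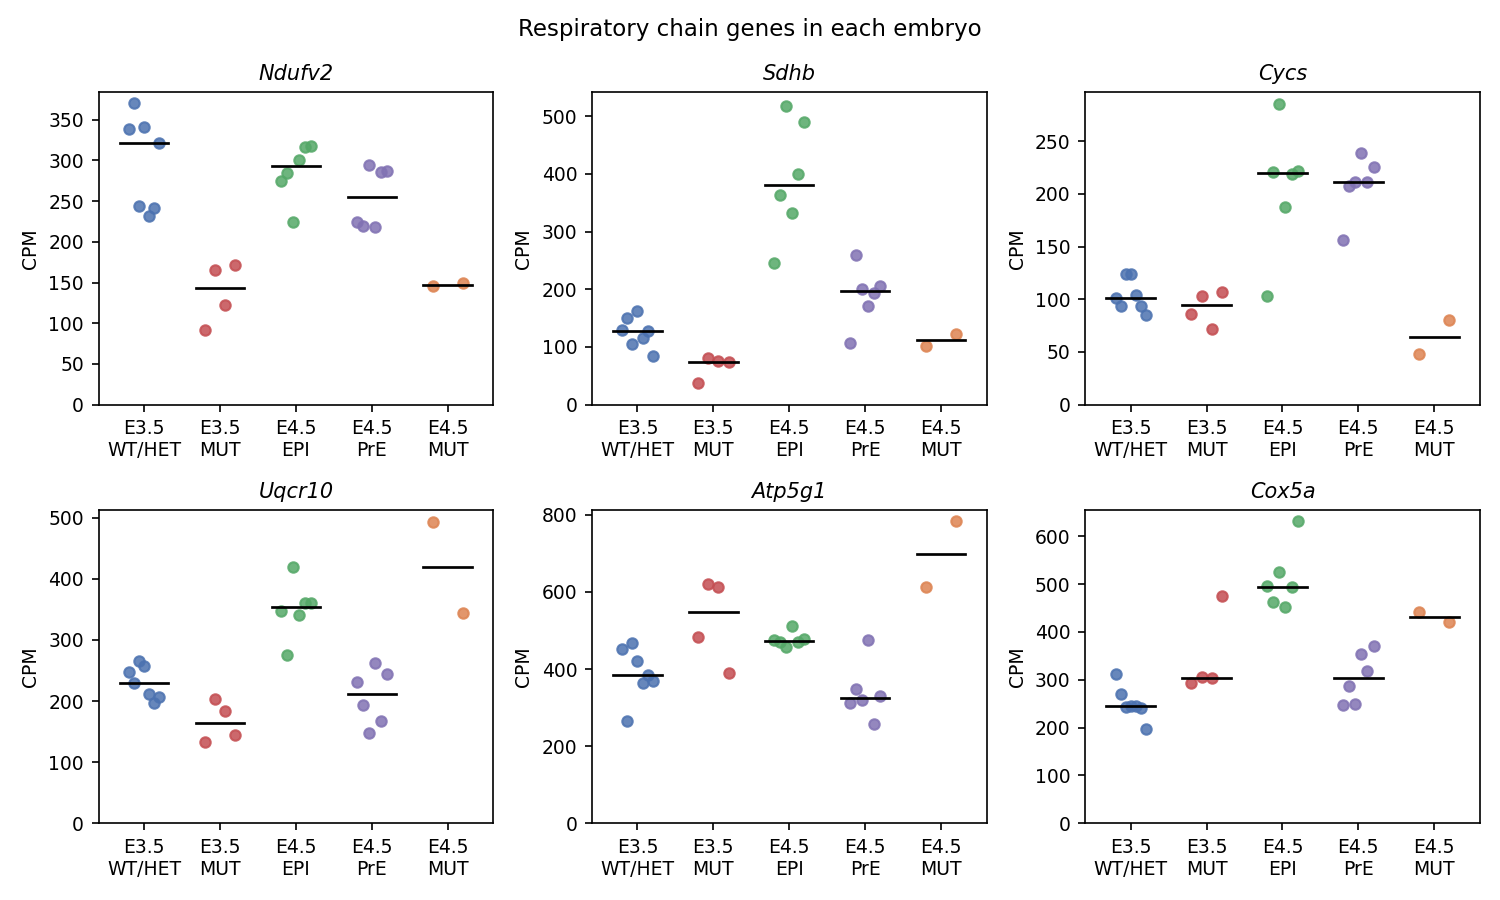
CPM per embryo sum (points) and group median (lines) for 4 respiratory chain subunits, for Sdhb of complex II and for Cycs (cytochrome c). Ndufv2 is at 91.6 to 171 CPM in both MUT groups and at 218 to 370 CPM in the 3 control groups; the other plots show Cycs low in E4.5 MUT (48.4 and 80.8 CPM) and Uqcr10, Atp5g1 and Cox5a in all 5 groups.

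Ndufv2 lies on chromosome 17 (66078638 to 66101559 on the minus strand, GRCm38), the chromosome of Pou5f1 (35506018 to 35510772), 30.6 Mb away. Its neighbours were therefore read too. Of 24 other tested genes within 5 Mb of Ndufv2 3 were called at E3.5, all lower in MUT (12.5%), against 6.67% of the rest of chromosome 17 and 6.12% of the other chromosomes in both directions. Among genes near it at E4.5, 2 of 27 were called against EPI (7.41%), 1 of them lower in MUT. The shares were 5.77% on the rest of chromosome 17 and 4.86% on the others. Against PrE 2 of 23 were called (8.7%), both lower in MUT, and the other shares were 3.9% and 3.78%. The median log2 fold change of the genes near Ndufv2 was -0.51 at E3.5, 0.21 against EPI and -0.44 against PrE. Whether linkage has a part in the Ndufv2 result was not tested. Its promoter, from 250 bases before to 50 after the start (chr17:66101510-66101809, minus strand, RefSeq on GRCm38.p6), is shown because Ndufv2 was the only member called in the E3.5 genotype comparison.
Ndufv2 promoter: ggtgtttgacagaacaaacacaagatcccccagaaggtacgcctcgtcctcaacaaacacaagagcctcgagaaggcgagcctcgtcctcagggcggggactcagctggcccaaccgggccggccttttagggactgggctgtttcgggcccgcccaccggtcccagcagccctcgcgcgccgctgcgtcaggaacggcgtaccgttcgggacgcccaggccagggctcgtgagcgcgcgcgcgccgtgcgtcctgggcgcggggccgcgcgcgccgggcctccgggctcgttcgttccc

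It was searched on both strands for 5 motifs: NRF1 (CGCATGCG), ETS (CCGGAAG), YY1 (AAGATGGC), the octamer bound by OCT4 (ATGCAAAT) and STAT (TTCCNGGAA). The Ndufv2 window holds none of these letter strings. Promoters of all 27025 genes in the table hold the octamer string in 2.0%, the STAT string in 1.3%, the NRF1 string in 2.1%, the YY1 string in 3.2% and the ETS string in 9.9%.

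At E4.5 the MUT cells were set against each control lineage in turn, and both comparisons use the same 2 MUT embryos. Against EPI, 2.3% of 12953 genes were higher and 2.62% lower in MUT. Among 77 nuclear subunits 0 were higher and 1 was lower, again Ndufv2, and 0 of 11 mitochondrial subunits passed. At an unadjusted p under 0.05, 3 nuclear subunits were higher, 10 lower and 2 mitochondrial subunits higher, and DESeq2 called 2, 4 and 2. Ndufv2 was at 146 and 149 CPM in MUT, at 224 to 318 CPM (median 293) in EPI and at 218 to 294 CPM (median 255) in PrE, with no overlap. The log2 fold change was -0.99 ± 0.22 against EPI (adjusted p = 0.0338) and -0.78 ± 0.23 against PrE (adjusted p = 0.0952, not called, but 0.019 with cells weighted equally). The call against EPI was lost when embryo 2, 3, 5, 6, 7 or 8 was left out (log2 fold changes -1.01 to -0.91 over all 8), with no filter on low counts, and when the controls were WT alone. The difference between the MUT effects at E4.5 and E3.5 was 0.17 ± 0.29 (log2, adjusted p = 0.87).

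Against PrE, 1.74% of 12246 genes were higher and 2.07% lower in MUT, and among 77 nuclear subunits 1 was higher and 0 lower in edgeR (8 and 3 at an unadjusted p under 0.05, 4 and 0 in DESeq2). That gene was Atp5g1, one of 3 genes for the c subunit that forms the proton driven ring of complex V. It was at 614 and 785 CPM in MUT and at 258 to 475 CPM (median 325) in PrE, with a log2 fold change of 1.05 ± 0.23 (adjusted p = 0.0396). Its EPI level was 458 to 511 CPM (median 473), and the log2 fold change of MUT over EPI, 0.52 ± 0.16, did not pass (adjusted p = 0.0901). The call against PrE was lost without embryo 1, 2, 3, 4, 7 or 8 (0.87 to 1.27) and with WT controls alone. The median log2 fold change was -0.11 for nuclear and 0.46 for mitochondrial subunits against EPI (all genes -0.03), and 0.22 and 0.62 against PrE (all genes 0.05). Without MUT embryo 8 the mitochondrial medians were 0.00 against EPI and 0.31 against PrE, and those of all genes -0.31 and -0.20. With cells weighted equally they were 0.23 and 0.41, and with WT controls alone 0.35 against PrE.

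No mitochondrial subunit passed in either E4.5 comparison in edgeR, although most values were above 0 (against PrE 3 at an unadjusted p under 0.05 and 1 in DESeq2). Of 11 tested, 10 had a positive log2 fold change against EPI (all genes 6365 of 12953) and 11 against PrE (all genes 6324 of 12246). These values come from the same 2 MUT embryos and are not independent of each other. Here and in the other comparisons the 11 include mt-Co2, mt-Co3, mt-Atp6 and mt-Nd3. These genes share 97.3% to 99.8% of their stretches with other genes and had few counts, so their values add little. mt-Co1 was at 9533 and 11239 CPM in MUT, 5294 to 8857 CPM (median 6808) in EPI and 5487 to 8907 CPM (median 6606) in PrE, so that the groups did not overlap. Its log2 fold change was 0.57 ± 0.18 (adjusted p = 0.113) against EPI and 0.62 ± 0.18 (adjusted p = 0.0848) against PrE. It passed against EPI without embryo 1, and in both comparisons under DESeq2. Against PrE mt-Co1 also passed without embryo 6, whose only sum there is the PrE sum of 2 cells (adjusted p = 0.0357). mt-Nd1, at 5426 and 6669 CPM in MUT and 3815 to 5007 CPM in EPI, had a log2 fold change of 0.46 ± 0.14 (adjusted p = 0.091, and 0.0143 in DESeq2).

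EPI and PrE cells of the same embryos differed in 9 nuclear subunits, each of them higher in EPI. Of 9762 genes tested 4.61% were higher and 5.2% lower in EPI, and 9 of 74 nuclear subunits were higher and 0 lower in edgeR (24 and 2 at an unadjusted p under 0.05, 13 and 0 in DESeq2). Since the classes were drawn from these transcriptomes, the values describe the classes. The median log2 fold change was 0.24 for nuclear and 0.16 for mitochondrial subunits against 0.03 for all genes. Of the 74 nuclear values 59 were above 0, against 5037 of 9762 over all genes. By complex, 2 of 37 were called in complex I, 1 of 8 in complex III, 3 of 13 in complex IV and 3 of 16 in complex V. The count for complex IV includes Cox6b2, which was at 0 in all PrE sums. Of 11 mitochondrial subunits 0 were called by edgeR or DESeq2, and 1 was higher at an unadjusted p under 0.05.

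Cox5a, a structural subunit of complex IV, was at 451 to 632 CPM (median 494) in EPI and 248 to 371 CPM (median 303) in PrE. No EPI value was as low as a PrE value, with a log2 fold change of 0.74 ± 0.14 (adjusted p = 0.00367). Uqcr10, a small subunit of complex III, was at 275 to 420 CPM (median 354) in EPI and 147 to 263 CPM (median 212) in PrE, again without overlap (0.76 ± 0.17, adjusted p = 0.00986). Atp5j2 of the membrane part of complex V followed with 208 to 311 against 153 to 207 CPM (0.59 ± 0.14, adjusted p = 0.0176). Ndufv3, at 96.7 to 143 CPM in EPI and 29.3 to 95.5 CPM in PrE, had a log2 fold change of 0.91 ± 0.26 (adjusted p = 0.0376). Atp5g1 (0.49), Atp5j of the stalk of complex V (0.44) and Cox6c of complex IV (0.49) passed with adjusted p of 0.0387, 0.0461 and 0.0495, and the call of Cox6c was lost when the embryo was entered as a block (adjusted p = 0.0801). Cox5a kept its call when any embryo was left out. Uqcr10 lost it without embryo 4, Atp5j2 without 2, 4, 5 or 6, Ndufv3 and Atp5g1 without any of 5 embryos (1, 4, 5, 6, 7 and 1, 2, 4, 6, 7), Cox6c without 2, 4, 5, 6 or 7 and Atp5j without any 1 of the 6. All 9 calls were lost with the 2 WT embryos alone.

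The ninth gene was Cox6b2, known as the testis form of a subunit that bridges the complex IV dimer. It had 284 counts in 14 of 37 EPI cells and a count in 0 of 29 PrE cells. By counting error alone the latter allows a share of up to 10.3%, with cells of 1 embryo not independent. Per embryo Cox6b2 was at 2.45 to 10.1 CPM (median 3.49) in EPI. Over all cells EPI was at least 76.6-fold higher than PrE, with a floor of 3 counts over the PrE group, and E4.5 MUT, with 163 counts in 4 of 19 cells and 62.0% of them in 1 cell, at least 92.1-fold higher. Since all PrE sums were at 0, Cox6b2 passed the filter on low counts through EPI alone, and its call among the 9 is no support for a difference. The adjusted p of EPI against PrE was 0.000706, and 0.0546 with the embryo as a block. For MUT against PrE it was 0.0848. The common form Cox6b1, for comparison, was the nuclear complex IV gene with the highest level in EPI at 696 FPKM.

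Between E3.5 and E4.5 the 2 genomes moved in opposite directions in control cells. Both stage comparisons share the 7 E3.5 WT/HET embryos, and the plate changed with the stage. For EPI, 15.5% of 11142 genes were higher and 16.4% lower at E4.5. Of 76 nuclear subunits 39 were higher and 7 lower, while of 11 mitochondrial subunits 0 were higher and 8 lower. The median log2 fold change was 0.49 for nuclear and -1.06 for mitochondrial subunits against -0.06 for all genes. For PrE, 14.8% of 10800 genes were higher and 16.9% lower. Of 75 nuclear subunits 22 were higher and 8 lower, and of 11 mitochondrial subunits 0 were higher and 8 lower, with medians of 0.23 and -1.29 against -0.10. With cells weighted equally, a setting that averages log2 CPM over cells without TMM, the median of all genes was -0.63 in EPI and -0.62 in PrE. Whether the weighting, the averaging of log values or the lack of TMM moved it was not tested. On that scale the medians of nuclear and mitochondrial subunits were 0.50 and -0.79 in EPI and 0.21 and -1.05 in PrE, so the mitochondrial values lay closer to the median of all genes, and 7 and 9 mitochondrial subunits were called lower.

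Nuclear subunits of all 4 complexes were among those that rose. In EPI 20 rose and 1 fell among 37 tested in complex I, 4 and 1 among 8 in complex III, 9 and 0 among 14 in complex IV, and 6 and 5 among 17 in complex V. In PrE these counts were 12 and 3 among 37, 3 and 1 among 8, 3 and 1 among 13, and 4 and 3 among 17. The 14 complex IV genes tested in EPI include Cox6b2, at 0 to 0.789 CPM in E3.5 WT/HET and 2.45 to 10.1 CPM in EPI. It passed the filter on low counts through EPI, so a call of Cox6b2 with the stage is no support for a difference. Complex V was the one with nearly equal counts in both directions in both lineages.

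**Figure D4:**
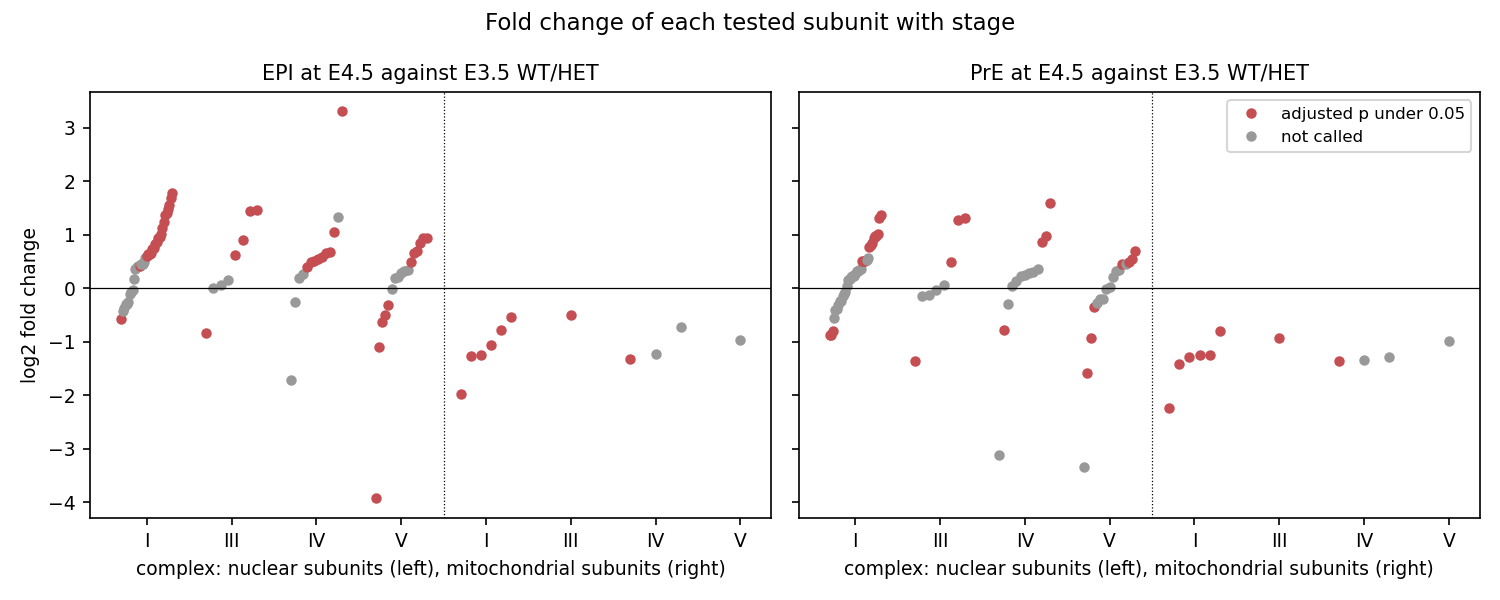
Each point is a tested subunit, with its log2 fold change between E3.5 WT/HET and EPI (left) or PrE (right) at E4.5 on the y axis, grouped by complex on the x axis with nuclear subunits left and mitochondrial subunits right of the dotted line; red points passed an adjusted p of 0.05. All 11 tested mitochondrial subunits lie below 0 in both plots, from -1.98 to -0.49 for EPI and from -2.23 to -0.79 for PrE. Over all tested genes, 5837 of 11142 (EPI) and 5768 of 10800 (PrE) were not above 0.

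Uqcrc1, a core subunit of complex III, was at 280 to 357 CPM (median 316) at E3.5, 710 to 1104 CPM (median 844) in EPI and 654 to 922 CPM (median 776) in PrE. The stages did not overlap, and it rose by 1.46 ± 0.12 (log2, adjusted p = 6.94e-07) in EPI and 1.28 ± 0.11 in PrE (adjusted p = 8.64e-07). In E4.5 MUT it stood at 598 and 397 CPM, below every EPI and PrE sum, with log2 fold changes of -0.84 ± 0.24 (adjusted p = 0.0775) and -0.65 ± 0.23 (adjusted p = 0.184) that did not pass. Ndufa7, an accessory subunit of complex I, rose from 85.4 to 123 CPM (median 103) to 212 to 400 CPM (median 333) in EPI (1.69 ± 0.15, adjusted p = 1.12e-06). In PrE, Uqcr11 of complex III rose from 95.8 to 142 CPM to 246 to 308 CPM (1.31 ± 0.13, adjusted p = 2.70e-06) and Ndufa8 of complex I from 86.3 to 113 CPM to 174 to 244 CPM (0.98 ± 0.13, adjusted p = 4.17e-05).

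Atp5j, a stalk subunit of complex V, went down in both lineages. It was at 695 to 1223 CPM (median 789) at E3.5, 353 to 508 CPM (median 378) in EPI and 250 to 333 CPM (median 294) in PrE, with log2 fold changes of -1.10 ± 0.14 (adjusted p = 3.93e-05) and -1.58 ± 0.14 (adjusted p = 9.66e-07). Uqcrb, which helps to form the ubiquinone site of complex III, fell from 530 to 1035 CPM (median 635) to 328 to 541 CPM in EPI (-0.83 ± 0.17) and 183 to 346 CPM in PrE (-1.35 ± 0.18). Atp5f1 of the stalk of complex V fell in EPI (-0.63 ± 0.11, adjusted p = 0.000508), and Cox6c fell in PrE (-0.77 ± 0.12, adjusted p = 0.000122), where it went from 612 to 759 CPM to 325 to 473 CPM.

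The promoters of Uqcrc1 and Atp5j are shown because these genes had the smallest adjusted p among the subunits that rose and fell with the stage, in EPI for Uqcrc1 and in both lineages for Atp5j. Both windows run from 250 bases before to 50 after a start and come from RefSeq on GRCm38.p6: chr9:108936398-108936697 on the plus strand for Uqcrc1 and chr16:84834927-84835226 on the minus strand for Atp5j. Capitals mark a motif string, NRF1 (CGCATGCG) in Uqcrc1, and NRF1, YY1 (AAGATGGC) and ETS (CCGGAAG) in that order in Atp5j.
Uqcrc1 promoter: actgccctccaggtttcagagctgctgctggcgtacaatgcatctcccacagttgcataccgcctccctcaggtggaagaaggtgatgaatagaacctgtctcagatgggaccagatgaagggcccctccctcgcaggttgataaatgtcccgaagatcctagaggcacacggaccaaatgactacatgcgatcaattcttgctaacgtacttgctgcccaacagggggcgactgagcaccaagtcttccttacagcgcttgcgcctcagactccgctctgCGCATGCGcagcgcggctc
Atp5j promoter: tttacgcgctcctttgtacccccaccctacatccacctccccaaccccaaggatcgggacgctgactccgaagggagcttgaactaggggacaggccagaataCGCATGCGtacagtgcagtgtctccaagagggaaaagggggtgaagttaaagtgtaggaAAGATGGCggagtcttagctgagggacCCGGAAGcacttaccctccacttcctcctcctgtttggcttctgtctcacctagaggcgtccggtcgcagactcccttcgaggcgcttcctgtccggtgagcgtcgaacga

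NRF1 and the ETS protein GABPA are known as regulators of respiratory chain genes, and the strings occur in 2.1% (NRF1), 9.9% (ETS) and 3.2% (YY1) of all promoters in the table. A second start of Atp5j in the table holds none of the 5 strings. Gabpa itself starts beside Atp5j on the opposite strand, and their annotated records overlap by 701 bases, within which reads cannot be given to one gene without strand. Gabpa also fell with the stage, from 180 to 281 CPM (median 219) to 24.7 to 96.1 CPM in EPI (-1.63 ± 0.25) and 21.3 to 101 CPM in PrE (-1.73 ± 0.29).

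Among mitochondrial subunits, mt-Nd2 of complex I had the most negative log2 fold change in both lineages. It was at 936 to 2053 CPM (median 1090) at E3.5, 186 to 446 CPM (median 297) in EPI and 180 to 381 CPM (median 247) in PrE (-1.98 ± 0.24 and -2.23 ± 0.25). mt-Co1 went from 14138 to 23260 CPM (median 18215) to 5294 to 8857 CPM in EPI and 5487 to 8907 CPM in PrE (-1.32 ± 0.14 and -1.36 ± 0.15). mt-Nd1 fell by 1.24 and 1.29 on the log2 scale, mt-Nd4 by 1.06 and 1.24 and mt-Nd6 by 0.77 and 1.24 in EPI and PrE. mt-Cytb (-0.49 ± 0.15, adjusted p = 0.0223) and mt-Nd5 (-0.53 ± 0.19, adjusted p = 0.0459) moved least in EPI, from 6975 to 15741 CPM to 6522 to 7471 CPM for mt-Cytb, with overlap. The EPI call of mt-Nd5 was lost without embryo 1, 5, 6, 7, 9, 15, 16 or 18 and under 4 other settings, and that of mt-Nd6 without embryo 9. With WT embryos alone as controls mt-Cytb and mt-Nd5 lost their calls in both lineages and mt-Nd6 its call in EPI. mt-Nd3 was called lower too (-1.26 and -1.41), on a gene whose sequence is shared as described above.

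The stage result moved with base composition. Over the 76 nuclear subunits tested in EPI, Spearman's correlation of the log2 fold change with the GC content of the transcript was 0.42, against 0.27 over 11130 of the genes tested; for PrE it was 0.41 over 75 subunits and 0.28 over all genes. These are correlations across genes, which are not independent replicates. The subunits that were higher in EPI had a median GC content of 52.1% and those that were lower 50.3%, and in PrE these medians were 52.8% and 47.6%. Within a stage the correlation over nuclear subunits was 0.01 for EPI against PrE and -0.27 for MUT against WT/HET at E3.5. The part of base composition in the stage result was not tested.

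The interaction of stage and genotype passed the test for 2 nuclear subunits, Uqcr10 and Cox8c. This interaction compares MUT with all WT/HET ICM cells at E4.5, less the same difference at E3.5, and of 16410 genes 2.71% were higher and 2.75% lower. Of 80 nuclear subunits 2 were higher and 0 lower, and 0 of 11 mitochondrial subunits passed in edgeR or DESeq2 (1 higher at an unadjusted p under 0.05), with medians of 0.05 and 0.28 against -0.08 for all genes. Uqcr10 was at 196 to 265 CPM (median 230) in E3.5 WT/HET and at 133, 204, 184 and 144 CPM in E3.5 MUT, but at 494 and 344 CPM in E4.5 MUT. The E4.5 controls mix EPI, at 275 to 420 CPM, and PrE, at 147 to 263 CPM, and MUT embryo 8 (344 CPM) lay within the EPI range. Against these mixed controls the MUT effect of Uqcr10 was 0.46 ± 0.20 at E4.5, and it was -0.47 ± 0.16 at E3.5. The difference of 0.93 ± 0.25 (log2, adjusted p = 0.0369) lost its call without embryo 3, 9, 10, 13, 14 or 19.

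Cox8c, known as the testis form of the smallest complex IV subunit, was the other. It had 28 counts in 2 of 58 E3.5 WT/HET cells, none in 29 E3.5 MUT cells, 3 counts in 1 of 37 EPI cells, none in 29 PrE cells and 139 counts in 6 of 19 E4.5 MUT cells. The adjusted p of the interaction was 0.0493, and 0.583 and 10.4 CPM in the 2 MUT embryos show that nearly all came from embryo 8, with 49.6% in a single cell. The call was lost in 16 of the fits that left out 1 embryo each, and under DESeq2 (adjusted p = 0.147).

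Other tissue-specific forms of complex IV were also near the floor. Cox6a2, the heart and muscle form of Cox6a, was found in 9 of 29 E3.5 MUT cells (226 counts, 48.2% in 1 cell) at 3.04, 13.4, 2.05 and 0.704 CPM, in 4 of 58 WT/HET cells (16 counts, up to 0.789 CPM) and in none of the E4.5 cells. For EPI this was 0 of 37 cells, which allows a share of up to 8.11% in such cells by counting error alone, with cells of 1 embryo not independent. It was not among the genes tested at E3.5, since it did not pass the filter on low counts. Cox7b2 was patchy, at 0 to 46.1 CPM (median 7.78) in E3.5 WT/HET and at 0, 1.6, 1.2 and 73.8 CPM in MUT, where 78.4% of the counts lay in 1 cell. Cox7a1, the muscle form of Cox7a, was at 0.996 to 6.82 CPM in E3.5 WT/HET, 5.9 to 11.7 CPM in EPI and 5.95 to 18.5 CPM in PrE. Cox4i2, known from lung and hypoxia, had 5 counts in E3.5 WT/HET, 81 in 2 of 37 EPI cells (67.9% in 1 cell) and 62 in 3 of 29 PrE cells (56.5% in 1 cell), and Cox8b had no count in any cell. Ndufa4l2, a hypoxia-responsive relative of Ndufa4, had 100 counts in 6 of 37 EPI cells and none in the other groups, 0 of 58 cells in E3.5 WT/HET.

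**Figure D5:**
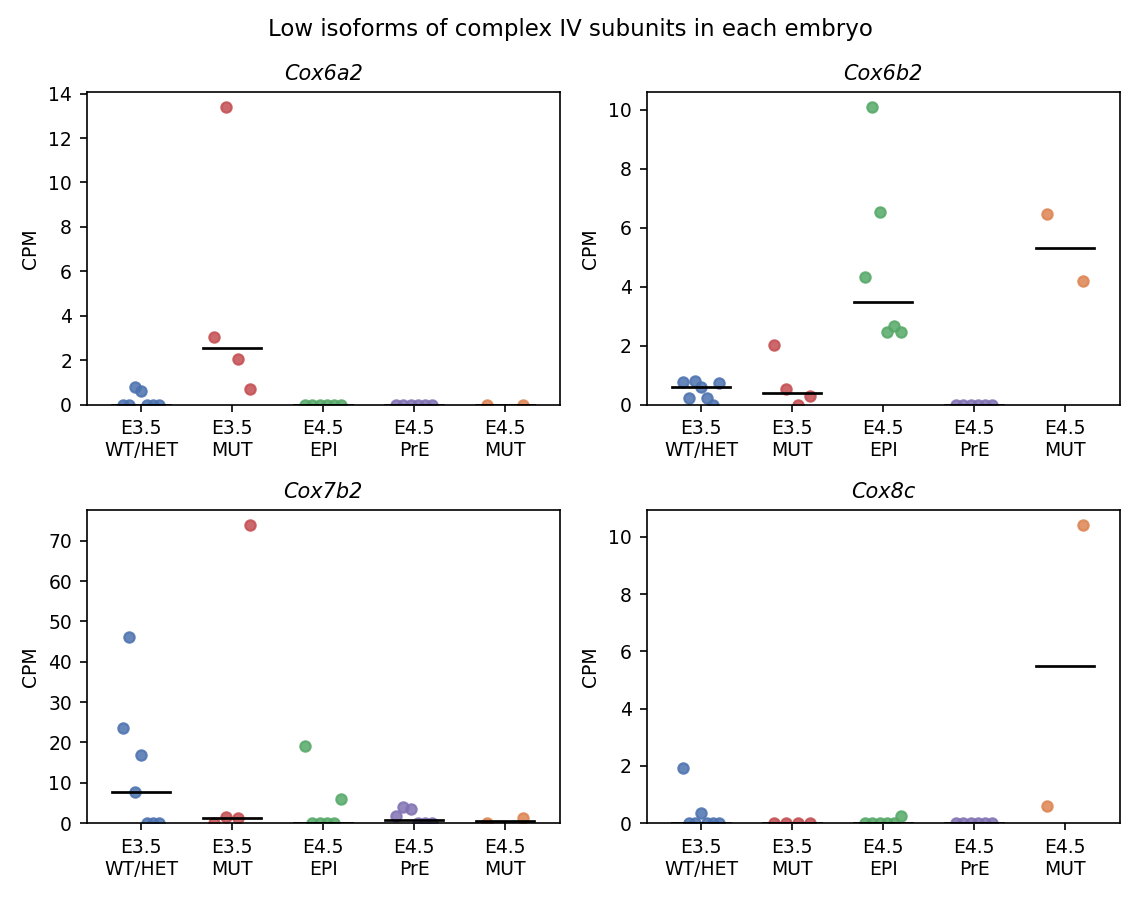
CPM per embryo sum (points) and group median (lines) for 4 complex IV subunit forms with tissue-restricted expression. Cox6b2 lies at 2.45 to 10.1 CPM in EPI and at 0 in all PrE sums, Cox6a2 at 0.704 to 13.4 CPM in E3.5 MUT, Cox7b2 reaches 73.8 CPM in 1 E3.5 MUT embryo and Cox8c 10.4 CPM in 1 E4.5 MUT embryo.

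Complex V carried a further low gene with a wide change, Atp5s, whose product is known as coupling factor B. It was at 12 to 48.2 CPM in E3.5 WT/HET and 26.3, 20.8, 13.1 and 32 CPM in E3.5 MUT, reached at most 4.01 CPM in EPI, and stood at 13.6 and 14.2 CPM in E4.5 MUT. In EPI it had 122 counts in 6 of 37 cells, and in PrE 170 counts in 3 of 29 cells (0 to 11 CPM). The stage change in EPI was called (adjusted p = 0.0138), whereas MUT against EPI was not (adjusted p = 0.457). In the stage comparison Atp5s passed the filter on low counts through E3.5 WT/HET alone. Its stage call, 1 of the 5 lower in complex V, is therefore no support for a difference. The c subunit genes Atp5g1, Atp5g2 and Atp5g3, which encode the same mature protein, had median levels of 78.2, 21.9 and 88.2 FPKM in E3.5 WT/HET, so that Atp5g2 was the lowest there. In CPM, which is not scaled for length, Atp5g2 was at 27.2 to 39.5 in those embryos. Atp5g2 rose in EPI (0.95 ± 0.20, adjusted p = 0.00218), a call lost with WT embryos alone.

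Outside the 94 genes, complex II and the electron carriers each held a gene that was lower in MUT. Sdhb, the iron-sulfur subunit of succinate dehydrogenase, was at 84.6 to 163 CPM (median 127) in E3.5 WT/HET and at 38.2, 80.3, 75.8 and 73.1 CPM in MUT, with no overlap (-0.89 ± 0.23, adjusted p = 0.0394). At E4.5 it was at 101 and 122 CPM in MUT, 246 to 518 CPM (median 382) in EPI and 107 to 260 CPM in PrE, with a log2 fold change of -1.84 ± 0.32 against EPI (adjusted p = 0.0116) and -0.75 ± 0.33 against PrE (adjusted p = 0.294). It was also higher in EPI than in PrE (1.05 ± 0.22, adjusted p = 0.00699). Of the 4 complex II genes 1 was lower in MUT at E3.5 and 1 lower against EPI, and 4 rose with the stage in EPI and 3 in PrE. Over all genes tested 2.98% were lower in MUT at E3.5 and 2.62% against EPI, and 15.5% rose with the stage in EPI and 14.8% in PrE. The E3.5 call of Sdhb was lost without any 1 of 9 embryos (9, 10, 11, 13, 14, 15, 16, 17 or 19; -0.97 to -0.69), and that against EPI without embryo 3 or 8. With WT embryos as controls and HET left out, none of the E4.5 calls of MUT against EPI or PrE of Sdhb, Cycs, Ssbp1, Ndufaf7, Esrrb, Etfa, Cox14 and Hif1a was kept, nor were the E3.5 calls of Sdhb and Cox17.

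Cycs, cytochrome c, which carries electrons from complex III to complex IV, was at 48.4 and 80.8 CPM in E4.5 MUT, 103 to 285 CPM (median 220) in EPI and 156 to 239 CPM (median 211) in PrE, with no overlap. It was lower by 1.71 ± 0.41 against EPI (log2 fold change -1.71, adjusted p = 0.0431) and -1.68 ± 0.30 against PrE (adjusted p = 0.0155). At E3.5 it was at 84.9 to 124 CPM in WT/HET and 85.8, 103, 71.5 and 107 CPM in MUT, and the difference between the stages in the MUT effect passed (-1.59 ± 0.32, adjusted p = 0.00655). Cycs rose with the stage in both lineages (1.02 ± 0.20 and 1.00 ± 0.14). The call against EPI was lost without any 1 of 7 embryos (2 to 8), and those against PrE and of the interaction without embryo 3. Among 8 carriers and cytochrome c1, Etfa, which feeds electrons from fatty acid oxidation, was the one higher in MUT against PrE (546 and 651 against 191 to 282 CPM, 1.35 ± 0.20, adjusted p = 0.0066), a call lost without embryo 8.

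Among 16 complex I assembly factors 0 were called at E3.5, and Ndufaf7, a mitochondrial methyltransferase, was the 1 called higher in MUT against EPI (92.2 and 116 against 13 to 38.7 CPM, 2.04 ± 0.49, adjusted p = 0.0462). Of 31 tested assembly factors of complexes II to V, Cox17, a copper chaperone, was higher in E3.5 MUT (0.57 ± 0.15, adjusted p = 0.0396) and Lyrm7 lower, on 193 counts in WT/HET and 1 count in MUT, so that it passed the filter on low counts through WT/HET alone and its call is no support for a difference. Cox14 was higher in MUT against PrE (1.42 ± 0.33, adjusted p = 0.0443). Leaving out 1 embryo ended the call of Ndufaf7 for each of 1, 3, 4, 5, 6, 7 and 8, of Cox17 for each of 9 to 18, of Lyrm7 for each of 10 to 17 and 19, and of Cox14 for each of the 8.

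Of 33 genes that copy, express and translate the mitochondrial genome, Mterf1b (139 counts in WT/HET, 1 in MUT) was lower in E3.5 MUT and Ssbp1, the single-strand binding protein of mitochondrial DNA, was lower in MUT than in EPI (77.1 and 82.5 against 136 to 249 CPM, -1.25 ± 0.29, adjusted p = 0.0382). Mterf1b too passed the filter through WT/HET alone. Its call was lost without any 1 of embryos 9 to 17 or 19, and that of Ssbp1 without any 1 of 2 to 8. With the stage 3 rose and 8 fell in each lineage, of 31 tested in EPI and 33 in PrE. Over all genes tested 15.5% rose and 16.4% fell in EPI, and 14.8% and 16.9% in PrE. Tfam, which packages and transcribes that genome, was at 76.8 to 98.7 CPM in E3.5 WT/HET, 33.6 to 129 CPM in EPI and 35.8 to 82.9 CPM in PrE, and fell in PrE (-0.68 ± 0.20, adjusted p = 0.0184, lost without embryo 4 and with WT controls alone) but was not called in EPI (-0.24 ± 0.27, adjusted p = 0.545). Polrmt, the mitochondrial RNA polymerase, was not called in any comparison at the settings reported here, with adjusted p of 0.472 in EPI and 0.456 in PrE against E3.5, and was called lower in both with cells weighted equally and in PrE with WT controls alone. Of the nuclear regulators, Myc was lower in E3.5 MUT (1.97 to 9.38 against 11.4 to 116 CPM, -2.93 ± 0.70, adjusted p = 0.0272). Esrrb was lower in MUT than in EPI (-2.60 ± 0.64, adjusted p = 0.0479) and Hif1a lower in MUT than in PrE (-1.73 ± 0.30, adjusted p = 0.0135). Leaving out 1 embryo ended the call of Myc for 3 embryos (10, 17, 19), as did weighting cells equally, of Esrrb for each of 1, 2, 3, 5, 6, 7 and 8 and of Hif1a for embryo 3.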

How the data were processed

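Smart-seq2 libraries of 172 single cells were aligned by the authors to GRCm38 (mm10) with STAR, and the deposited files hold counts of read pairs per Ensembl gene, made with htseq-count after the authors' filter on cells. Pairs matching several places and other unassigned pairs were kept out of library sizes and tests. Differential expression in the study used scde on single cells, which was not used here because cells are not replicates. The embryo of each cell and the lineage classes were taken from the study's list of cells.

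Per embryo, and at E4.5 per lineage, the counts of all cells were added. edgeR 4.0.16 (R 4.3.3) was run with filterByExpr, TMM and the quasi-likelihood test on all genes, each comparison with its own groups, with Benjamini-Hochberg adjustment over all genes tested and a threshold of 0.05. Log2 fold changes are printed with their standard error. FPKM used the union of exons. Gene symbols came from the GRCm38 annotation, in which the rule's mt-Cyb is mt-Cytb. An annotated second Atp5o was not analysed here. Shared sequence was read as 125-base stretches of the annotated transcripts. Promoters came from RefSeq, with an entry for 64 of the 81 nuclear subunits, too few for a share over the subunits. The fit was tested on simulated data.

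Members, gene lists, motifs and settings were chosen with earlier results of these data known. Genes were named by rule: all mitochondrial subunits, the called nuclear subunits with the smallest adjusted p (up to 5 per direction within a stage, 3 for stage and interaction), tissue forms, the highest gene per complex, and up to 3 called genes per other list and direction. Sdha, Sdhb, Sdhc, Sdhd, Cycs, Tfam and Polrmt were included in any case. Ndufv1, Atp5s and the neighbours of Ndufv2, and Atp5j and Gabpa as neighbours, were added after their values were seen, as was the wider set of EPI genes.

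Each EPI sum has a PrE sum of its own embryo, so both were also fitted with the embryo as a block. Deviations from the lineage means correlated between the sums of an embryo with r of 0.00894 to 0.0661. Alternatives were DESeq2 1.42.0, its size factors in edgeR, library sizes from genes outside the mitochondrial genome, no filter on low counts, cells weighted equally, 9 shallow cells left out, WT embryos as the only controls, and each embryo left out. For cells weighted equally, log2 CPM with a small constant added was averaged over the cells of each sum, without TMM, and tested with limma 3.58.1. The PrE sum of 2 cells was left out after seeing the data. Some single-gene results are not reported here.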

Additional observations from a re-analysis of the deposited data

Results flagged for a closer look

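Within groups of 4 to 10 embryos, 184 groups of values were read for an embryo far from the others (Dixon's ratio, which flags about 1 in 20 groups by chance), and 16 were found. Among member values, PrE embryo 6, the sum of 2 cells, was highest for the share of mitochondrial subunits (2.88%, the others 1.36% to 1.9%) and for mt-Nd4 (842 CPM, the others 447 to 595). Atp5b was high in EPI embryo 1 (3822 CPM, the others 2168 to 2758) and in E3.5 MUT embryo 12 (1845 CPM, the others 1561 to 1610). Cox5a stood apart in E3.5 MUT embryo 19 (475 CPM, the others 294 to 305). In EPI, Atp5g1 was highest in embryo 5 (511 CPM, the others 458 to 478), Atp5j in embryo 7 (508 CPM, the others 353 to 405) and Uqcrb in embryo 2 (541 CPM, the others 328 to 397). Ndufa8 was lowest in E3.5 WT/HET embryo 18 (86.3 CPM, the others 103 to 113).

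Among the other genes of the pathway, Sdhb was lowest in E3.5 MUT embryo 10 (38.2 CPM), Sdhd was highest in E3.5 WT/HET embryo 11 (238 CPM) and lowest in PrE embryo 6 (155 CPM), and Cycs was lowest in PrE embryo 1 (156 CPM). Lyrm7 was highest in E3.5 WT/HET embryo 16 (8.33 CPM), Gabpa in embryo 11 of that group (281 CPM), and Cox10 was lowest in EPI embryo 5 (42.9 CPM).

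The interaction term in edgeR, the MUT effect at E4.5 less that at E3.5, passed for 8 of the genes described. Uqcr10 (log2 difference 0.93), Cox8c (12.49), Lyrm7 (8.58) and Myc (4.38) were relatively higher in MUT at E4.5, and Cycs (-1.59), Ssbp1 (-1.09), Cox10 (-1.67) and Ecsit (-2.13) relatively lower. The values of Cox8c and Lyrm7 are fitted against groups at or near 0 counts and are no bounds. Leaving out 1 embryo at a time ended the call of Uqcr10 in 6 fits, of Lyrm7 in 15 (all but those without embryo 1, 4, 6 or 18), of Ssbp1 in 12 (3, 4, 5, 6, 8, 10, 13, 14, 15, 16, 18, 19), of Ecsit in 13 (3, 5, 6, 7, 8, 11 to 17, 19), and of Cox8c in 16 of 18 fits (all but those without embryo 7 or 18). Cycs lost its call without embryo 3 and Cox10 without embryo 8. Myc kept its call in all 19 such fits and lost it with cells weighted equally.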

How the results depend on the processing

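The number of members called was 1 at E3.5 (DESeq2 3), 1 for MUT against EPI (DESeq2 8, cells weighted equally 6, no filter on low counts 0, WT embryos as the only controls 0), 1 for MUT against PrE (DESeq2 5, cells weighted equally 4, WT controls 0, without the PrE sum of 2 cells 2), 9 for EPI against PrE (no filter 4, WT embryos 0), 54 for the EPI stage comparison (WT controls 34), 38 for that of PrE, and 2 for the interaction (DESeq2 1, no filter 0, shallow cells left out 1, WT controls 0). Leaving out 1 embryo at a time gave 1 to 1, 0 to 3, 0 to 2, 2 to 7, 48 to 57, 37 to 42 and 0 to 2 in that order. With the embryo as a replicate block EPI against PrE again gave 9, with Cox6b2 (adjusted p = 0.0546) and Cox6c (0.0801) not among them. The PrE stage comparison lost calls with WT controls too. It then had 15 nuclear subunits higher, 7 lower and 5 mitochondrial subunits lower, against 22, 8 and 8 in the main fit. With unassigned read pairs in the denominator, the median shares of mitochondrial subunits became 1.99%, 1.9%, 1.31%, 1.15% and 1.72% (E3.5 WT/HET, E3.5 MUT, EPI, PrE, E4.5 MUT) and those of nuclear subunits 0.851%, 0.78%, 1.45%, 1.27% and 1.3%, and the mean of cell shares was 2.08% for nuclear subunits in E4.5 MUT. Values near 0 that were not called changed sign for mt-Co1 (-0.36 to 0.02, above 0 without embryo 17) and Tfam (-0.52 to 0.02, embryo 10) at E3.5, for mt-Cytb (-0.11 to 0.43, below 0 without embryo 8) and Tfam (-0.40 to 0.02, embryo 7) against EPI, and for Cycs in EPI against PrE (-0.14 to 0.05, above 0 without embryo 1 or 5, and 0.01 with cells weighted equally). The cause of these changes was not tested. Among single-gene values under an alternative, 1513 kept direction and side of the threshold, 298 lost the call and 14 gained one. Ndufv2 at E3.5 was called under all of them (log2 fold changes -1.23 to -0.94 over the embryos left out). With 2 MUT embryos at E4.5 and the 2-cell PrE sum, these comparisons are the least precise.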
